A study of Danio rerio with 8 samples.

Results

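Nuclear receptors are transcription factors that bind DNA and change the rate of transcription, many of them when a small lipid-soluble molecule such as a steroid, a fatty acid, an oxysterol, retinoic acid or thyroid hormone binds them. They act with coactivators, among them the PGC-1 and NCOA proteins, and in heart muscle the PPAR and ERR receptors together with PGC-1 are known as main regulators of the genes of fatty acid oxidation, the citric acid cycle and the respiratory chain. The REV-ERB and ROR receptors of the same superfamily act on the circadian clock. The genes of this group were described in cardiomyocytes of the zebrafish ventricle that do or do not express tbx5a, a T-box transcription factor gene of the heart. A row of the expression table was taken as a member when its gene symbol began with nr1, nr2, nr3, nr5, nr6, ppar, esrr, esr1, esr2, rxr, rora, rorb, rorc, thra, thrb, vdr or ncoa or was one of the names raraa, rarab, rarga and rargb, with nr4a genes left out. Rows listed in capitals as RARG match none of these and were not taken. By symbol 72 rows matched, and 51 of them reached 1 CPM, a count scaled to the library total, in at least 2 libraries and were tested, out of 13895 genes tested and 31388 rows in all. The rule itself used symbols and the filter and no measured difference, but it was drawn up with earlier results of these data known.

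Both populations came from ventricles of adult tbx5a:GFP;myl7:nuc-dsRed zebrafish of 6 to 9 months, in which nuc-dsRed labels cardiomyocyte nuclei under the control of myl7 and GFP reports tbx5a. The tbx5a+ cardiomyocytes (GFP+/nuc-dsRed+) and the tbx5a- cardiomyocytes (GFP-/nuc-dsRed+) were sorted from the same hearts without injury or drug treatment named in the labels, and both carry both transgenes. The 4 replicates carry the numbers 2, 8, 9 and 10, and from each pool of 5 hearts came 1 library per population, so that single animals cannot be followed and the spread is one between pools. Membership of a population rests on the GFP gate, and a lower level in each cell and fewer cells with the transcript cannot be told apart in these sorted bulk libraries. The question of the comparison was how the transcripts of the tbx5a+ cardiomyocytes differ from those of the remaining ventricular cardiomyocytes.

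The libraries held an estimated 8076698 to 9491002 reads for tbx5a+ and 7148873 to 9203680 for tbx5a- cardiomyocytes. Between 13706 and 14983 genes were above 0 in tbx5a+ and between 11329 and 13793 in tbx5a- libraries, with the fewest in replicates 9 (11329) and 2 (12225) of tbx5a-, called the sparse libraries below. Of the 51 members, 46 to 51 were above 0 in a tbx5a+ and 42 to 48 in a tbx5a- library. The summed level of all 72 rows that matched by symbol was 784 to 1001 CPM in tbx5a+ and 759 to 905 CPM in tbx5a- libraries. The tbx5a gene (listed as TBX5) was at 3197 to 4919 normalized units in tbx5a+ and 90.5 to 442 in tbx5a- libraries, a log2 fold change of 4.32 (limma, adjusted p = 8.7e-08), and the cardiomyocyte gene MYL7 was at 81461 to 99143 in tbx5a+ and 78434 to 100594 in tbx5a- libraries. Of the 6 lists of cell type markers, 2 of the 7 smooth muscle and mural genes tested were called, against 0.194% of all genes. Both were lower in tbx5a+, acta2 with a log2 fold change of -6.67 and TAGLN with -2.15. Without the sparse libraries these were -5.97 and -1.19. Of the 7, 2 had a log2 fold change above 0. At an unadjusted p under 0.05 limma gave 1 higher and 3 lower in tbx5a+, and 1 higher and 4 lower with the pair as a block. Over all genes 7.06% had such a p in either direction, and 9.23% with the block. The authors describe genes of the actin cytoskeleton as specific to tbx5a- cardiomyocytes. The sum of the smooth muscle and mural list was 1107 to 1529 in tbx5a+ and 1249 to 3421 in tbx5a- libraries. No gene of the other 5 lists was called, but some of their sums reached higher in tbx5a- libraries. The leukocyte sum was 20.1 to 35.8 in tbx5a+ and 2.37 to 260 in tbx5a- libraries. For epicardial and fibroblast markers it was 107 to 198 in tbx5a+ and 53.1 to 444 in tbx5a-. For endothelial and endocardial markers it was 155 to 271 and 102 to 347, and for red blood cell and thrombocyte markers 42.5 to 75.5 and 32.4 to 77.1, in the same order. The part of other cells in the values below was not tested.

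No nuclear receptor or coactivator gene was called different between the populations. Values are normalized units, in which 1 read was worth 0.859 to 1.19, a floor of 3 reads in a library was 2.58 to 3.56, and the log2 fold change of log2(value + 1) is tbx5a+ over tbx5a-, which understates the change of genes with few reads. Calls needed an adjusted p (Benjamini-Hochberg, over all genes) of at most 0.05 together with a log2 fold change of 1 or more in either direction. By this rule limma called 0 of the 51 members, against 27 of 13895 genes (0.194%), of which 26 were lower and 1 higher in tbx5a+. The smallest adjusted p of a member was 0.712 (ppargc1a). At an unadjusted p under 0.05 there were also 0 of the 51, against 7.06% of all genes. With the pair as a block, limma called 0 of the 51 and 58 of all genes (0.417%, 19 of them higher in tbx5a+), and 3 members had an unadjusted p under 0.05 (ppargc1a, ncoa2 and pparab, all higher in tbx5a+), a share of 5.88% against 9.23% of all genes (6.28% of all genes higher in tbx5a+). The limma-voom fit on estimated counts called 0 of the 51 (0.173% of all genes) and gave 1 member, rxrbb, an unadjusted p under 0.05 (7.52% of all genes). Without the sparse libraries, 0 of the 49 members still tested and 6 of all genes (0.0455%) were called, and 1 member, NCOA5, had an unadjusted p under 0.05 (5.68% of all genes).

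The members as a group lay close to the whole table. Their median log2 fold change was 0.19, beside 0.20 over all genes tested, and 32 of the 51 (62.7%) were above 0, beside 61.3% of all genes. For the 36 members above 0 in all 8 libraries the median was 0.09, beside 0.10 over the 8105 such genes, and for the 15 members at 0 in 1 or more libraries it was 1.02, beside 0.66 over the 5790 such genes, a set that depends in part on the difference itself. The shift of the whole table depended on the scaling: with each library set to an equal total the median of all genes was 0.09 and that of the members 0.07, and without the sparse libraries they were 0.04 for all genes and 0.16 for the 49 members then tested. In 4 of 4 pairs the tbx5a+ library was the higher one for 5 members (9.8%, against 9.54% of all genes), which were ppargc1a, ncoa2, rxrbb, NR2F6 ENSDARG00000003607 and THRA ENSDARG00000000151. Of these, rxrbb and THRA ENSDARG00000000151 would not have passed the filter on their tbx5a- libraries alone. In 4 of 4 pairs the tbx5a+ library was the lower one for 2 members (3.92%, against 5.38%), THRB and ESR1. The libraries of the populations overlapped for every member, whereas 2.32% of all genes lay wholly higher and 1.65% wholly lower in tbx5a+.

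How narrowly a difference was bounded varied widely among the members. The median standard error of the log2 fold change was 0.63 for the members and 0.94 for all genes. For 6 members (11.8%, against 15.5% of all genes) the 95% interval lay within a log2 fold change of -1 to 1: ppargc1b, ncoa4, nr1d2a, nr1d4b, NR2F6 ENSDARG00000003165 and THRAP3. For each of the others a 2-fold difference lay inside the interval in at least 1 direction. With the pair as a block the intervals of NR1D1 (-0.62 to 0.993) and NR1H3 (-0.83 to 0.988) also lay within -1 to 1. The share of all genes with the block is not given. The median SD of the members' log2 values was 0.65 among tbx5a+ and 1.02 among tbx5a- libraries, and over all genes it was 0.72 among tbx5a+ and 1.24 among tbx5a- libraries.

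**Figure D1:**
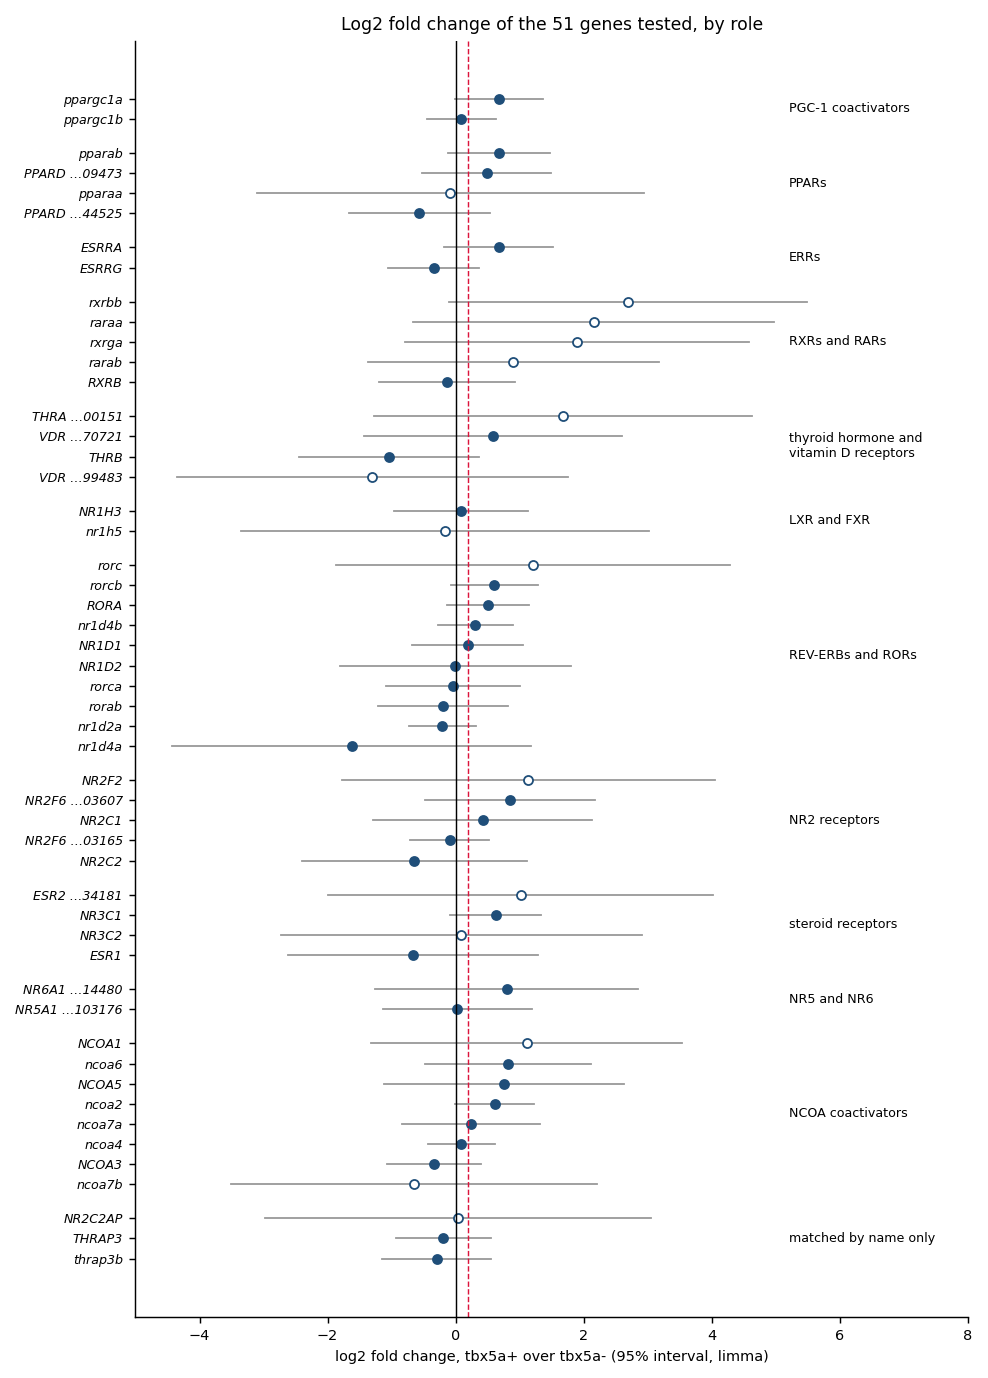
Log2 fold change (x axis, tbx5a+ over tbx5a-) of each of the 51 genes tested, grouped by role, with its 95% interval from limma. Filled points mark genes above 0 in all 8 libraries and open points genes at 0 in 1 or more, the dashed line marks the median of all genes tested (0.20), and every interval includes 0.

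PGC-1 coactivators do not bind DNA themselves but are recruited by nuclear receptors and raise the output of mitochondrial genes. Of all members ppargc1a, which encodes PGC-1alpha, had the smallest p. It was at 776, 453, 506 and 1027 in tbx5a+ libraries of replicates 2, 8, 9 and 10, the order used for all values below, against 398, 331, 253 and 844 in tbx5a- libraries. The tbx5a+ library was higher in each pair, but the pairs differed in level more than the populations did, with replicate 10 the highest of both. The means were 691 ± 265 in tbx5a+ and 456 ± 265 in tbx5a- libraries (SD, n = 4 each). Its log2 fold change was 0.67 (SE 0.33, 95% interval -0.01 to 1.36, limma adjusted p = 0.712). With the pair as a block the adjusted p was 0.300, with an interval of 0.20 to 1.15, and without the sparse libraries the log2 fold change was 0.31.

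Its relative ppargc1b, which encodes PGC-1beta, was at 521, 589.9, 631 and 468 in tbx5a+ and 473, 676, 617 and 356 in tbx5a- libraries. Here the libraries of each pair lay close together, and the higher one was tbx5a+ in 3 pairs and tbx5a- in replicate 8. The log2 fold change was 0.09 (SE 0.26, 95% interval -0.45 to 0.64) and was -0.03 with equal library totals, so no direction can be given. A difference of 2-fold lies outside this interval in both directions.

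The PPARs bind fatty acids and their derivatives as pairs with RXR. pparab, one of the zebrafish copies of PPARalpha, the receptor known for switching on fatty acid oxidation in liver and heart, was at 470.3, 159, 321 and 432 in tbx5a+ and 181, 185, 121 and 388 in tbx5a- libraries. The pairs of replicates 2 and 9 differed, those of replicates 8 and 10 much less, and in replicate 8 the tbx5a- library was the higher one. The log2 fold change was 0.68 (SE 0.39, adjusted p = 0.740). It was 0.25 without the sparse libraries, which are those of the pairs that differed, and with the pair as a block its 95% interval was 0.02 to 1.34 (adjusted p = 0.524).

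The other copy, pparaa, was near the floor, at 12.3, 0, 1.91 and 7.53 in tbx5a+ and 43.9, 1.02, 3.56 and 0 in tbx5a- libraries. Its log2 fold change of -0.08 with an interval of -3.10 to 2.94 gives no direction and became 0.02 in the limma-voom fit. The row of pparg, the PPAR known from fat cells, was at 0 in every library.

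PPARdelta, known for a broad part in fatty acid oxidation of muscle, is held in 2 rows, both listed as PPARD. The row ENSDARG00000009473 was at 114, 86.4, 97.5 and 181 in tbx5a+ and 45.0, 144, 65.2 and 104 in tbx5a- libraries, with a log2 fold change of 0.49 (SE 0.49) that became -0.09 without the sparse libraries. The row ENSDARG00000044525 was at 51.0, 63.8, 57.2 and 59.3 in tbx5a+ and 73.1, 115, 126 and 51.5 in tbx5a- libraries, with a log2 fold change of -0.57 (SE 0.53). The tbx5a+ libraries of the second row lay within a narrow range, and the tbx5a- libraries of replicates 2, 8 and 9 were above it. Neither row was called, and how the authors' counting shared reads between such duplicate genes was not tested.

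The ERRs are orphan receptors that activate genes of the citric acid cycle and the respiratory chain together with PGC-1. ESRRA was at 379.9, 136, 124 and 322 in tbx5a+ and 117, 150.2, 102 and 177 in tbx5a- libraries. The tbx5a+ libraries of replicates 2 and 10 were above all 4 tbx5a- libraries, and those of replicates 8 and 9 were within their range. ESRRA had a log2 fold change of 0.67 (SE 0.41, adjusted p = 0.749), which was 0.39 without the sparse libraries. ESRRG, at 214, 254, 186 and 140.2 in tbx5a+ and 385, 214, 178 and 251 in tbx5a- libraries, had a log2 fold change of -0.34 (SE 0.35), with each population higher in 2 pairs. Of the other ERR rows, esrrb, esrrd and esrrgb did not pass the filter, and their highest value in any library was 2.05, 6.16 and 5.15.

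**Figure D2:**
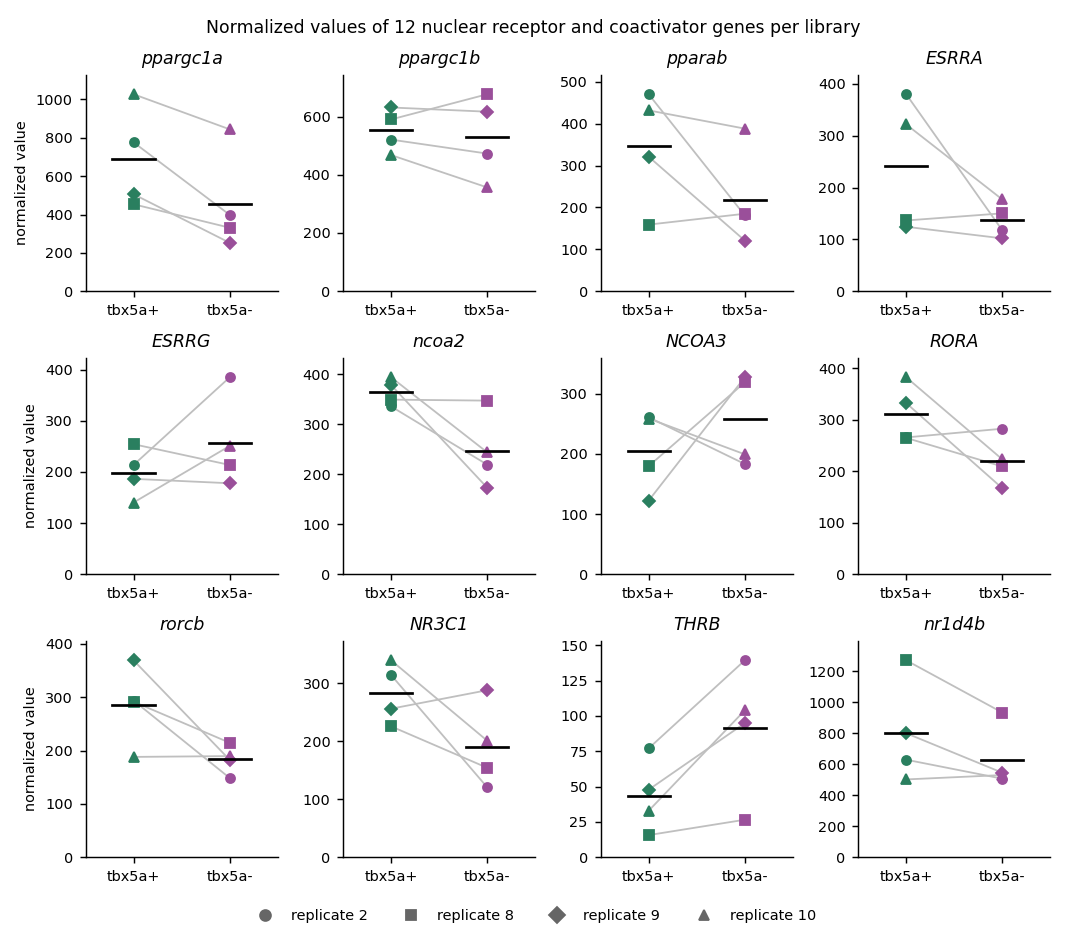
Normalized value (y axis, linear, from 0) of 12 of the genes in each library, with tbx5a+ left of tbx5a-, the libraries of a replicate joined by a line and the mean of each population as a bar. The populations overlap in each panel. All 4 lines of ppargc1a and ncoa2 are higher at tbx5a+, though that of ncoa2 in replicate 8 is nearly level, and all 4 lines of THRB are higher at tbx5a-.

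The RXRs are the partners with which PPAR, LXR, thyroid hormone, vitamin D and retinoic acid receptors bind DNA, and the RARs bind retinoic acid. Of their 5 rows tested, rxrbb, rxrga and raraa held few reads, and their fold changes, the largest among the members, had wide errors. rxrbb was at 8.22, 12.8, 13.4 and 42.3 in tbx5a+ and 0, 9.20, 0 and 3.44 in tbx5a- libraries, which is 80 estimated reads over the 4 tbx5a+ and 13 over the 4 tbx5a- libraries. It was higher in tbx5a+ in each pair, but 2 tbx5a- libraries, the sparse ones, were at 0. The log2 fold change was 2.69 (SE 1.36, adjusted p = 0.716), it was 1.32 without those libraries, and limma-voom gave an adjusted p of 0.640.

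rxrga was at 12.3, 0, 13.4 and 0 in tbx5a+ libraries and at 0 in all 4 tbx5a- libraries. Set against a floor of 3 reads in each tbx5a- library its mean was 2.06-fold higher in tbx5a+, from 26 estimated reads in 2 libraries. That value leaves out the error of the tbx5a+ libraries. rxrga passed the filter through its tbx5a+ libraries alone, so the direction of its difference was set by the filter. raraa was at 15.4, 6.87, 21.0 and 12.2 in tbx5a+ and 0, 9.20, 8.30 and 0 in tbx5a- libraries (log2 fold change 2.16, SE 1.37, adjusted p = 0.749), with tbx5a+ higher in 3 of 4 pairs. Neither rxrbb nor raraa would have passed the filter on its tbx5a- libraries alone. For these 3 rows the values at 0 allow up to 3 reads each, and the difference was not separable from the spread between libraries. rarab was at 25.7 to 64.9 in tbx5a+ and 0 to 73.5 in tbx5a- libraries, where replicate 9 was at 0. RXRB, which was above 0 in all 8 libraries, was at 60.6 to 113 in tbx5a+ and 63.6 to 167 in tbx5a- libraries, with a log2 fold change of -0.13 (SE 0.51). Of the rows listed as RXRA, 1 was at 0 in every library and 1 reached 13.3, and rxrgb reached 17.4, none of them passing the filter.

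The thyroid hormone receptors repress their target genes without hormone and activate them with it. THRB was at 77.0, 15.7, 47.8 and 32.9 in tbx5a+ and 139, 26.6, 94.8 and 104 in tbx5a- libraries, with the tbx5a- library higher in each pair. Replicate 8 was the lowest of both populations, and its tbx5a- library was below 3 of the tbx5a+ libraries. The log2 fold change of THRB was -1.04 (SE 0.68, 95% interval -2.45 to 0.36, adjusted p = 0.749) and was -0.49 without the sparse libraries. The row THRA ENSDARG00000000151 was at 1.03, 38.3, 57.4 and 29.2 in tbx5a+ and 0, 3.07, 46.2 and 6.01 in tbx5a- libraries. It was higher in tbx5a+ in each pair but with a wide spread (log2 fold change 1.68, SE 1.43, adjusted p = 0.807). In replicate 2 the tbx5a+ value was that of 1 read, against 0. This row would not have passed the filter on its tbx5a- libraries alone. In mammals the genes of THRA and NR1D1 overlap on opposite strands, and whether strand was used in counting is not stated. A second THRA row reached 25.8 in 1 library and did not pass the filter.

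Of 2 rows for the vitamin D receptor, VDR ENSDARG00000070721 was at 16.0 to 47.2 in tbx5a+ and 3.56 to 80.0 in tbx5a- libraries. VDR ENSDARG00000099483 was at 0 to 9.41 in tbx5a+ and 0 to 51.0 in tbx5a- libraries, with fold changes on the log2 scale of 0.58 (SE 0.98) for the first and -1.30 (SE 1.48) for this row. NR1I2, the xenobiotic receptor PXR, reached 10.3 and did not pass the filter. NR1H3, the oxysterol receptor LXRalpha, was at 85.1 to 219 in tbx5a+ and 39.5 to 219.6 in tbx5a- libraries (log2 fold change 0.08, SE 0.51). nr1h5, a relative of the bile acid receptor, was at 0 to 18.2 in tbx5a+ and 0 to 61.4 in tbx5a- libraries, and the bile acid receptor NR1H4 itself was at 0 in every library.

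REV-ERBs repress and RORs activate through the same kind of DNA element, and both feed back on the core clock genes. Of the 10 rows tested 5 had a log2 fold change above 0 and 5 below, with a median of 0.09. RORA was at 266, 265, 333 and 383 in tbx5a+ and 283, 209, 167 and 223 in tbx5a- libraries (log2 fold change 0.50, SE 0.31, adjusted p = 0.749). The tbx5a+ library was higher in replicates 8, 9 and 10 and slightly lower in replicate 2. rorcb, one of the zebrafish genes named after RORgamma, was at 294, 292, 369 and 188 in tbx5a+ and 149, 215, 183 and 189.6 in tbx5a- libraries (log2 fold change 0.60, SE 0.33, adjusted p = 0.723). It was higher in tbx5a+ in replicates 2, 8 and 9 and nearly equal in replicate 10.

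nr1d4a, a fish relative of the REV-ERBs, was at 9.24, 0.98, 4.31 and 5.64 in tbx5a+ and 26.3, 30.7, 39.1 and 0.86 in tbx5a- libraries. The tbx5a- libraries of replicates 2, 8 and 9 were above all tbx5a+ libraries. That of replicate 10 was at the value of 1 read, as was the tbx5a+ library of replicate 8. The log2 fold change of -1.62 had an SE of 1.36 (adjusted p = 0.800). It was -2.66 without the tbx5a- library of replicate 10 and -0.57 without the sparse libraries, and the gene was not called in either fit. nr1d4a would not have passed the filter on its tbx5a+ libraries alone. Its copy nr1d4b was at 502 to 1269 in tbx5a+ and 507 to 932 in tbx5a- libraries, and in both populations replicate 8 was the highest (log2 fold change 0.31, SE 0.28). nr1d2a, at 386 to 485 in tbx5a+ and 465 to 525 in tbx5a- libraries, was among the steadiest members (log2 fold change -0.21, SE 0.25). NR1D1 was at 139.7 to 166 in tbx5a+ and 81.8 to 248 in tbx5a- libraries, a narrow range in tbx5a+ and a wider one in tbx5a- libraries. The log2 fold changes of NR1D1, NR1D2, rorab, rorca and rorc were 0.19, -0.0036, -0.20, -0.04 and 1.21, each smaller than its SE. RORB did not pass the filter, since only 1 library, with 38.8, held it above 1 CPM.

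The NR2 receptors include the COUP-TFs, of which NR2F2 in the mouse and nr2f1a in zebrafish are known for their part in atrial identity. NR2F6 ENSDARG00000003607 was at 45.2, 65.8, 88.9 and 65.8 in tbx5a+ and 31.8, 21.5, 47.4 and 48.1 in tbx5a- libraries, higher in tbx5a+ in each pair (log2 fold change 0.85, SE 0.65, adjusted p = 0.774). The tbx5a+ libraries of replicates 8, 9 and 10 were above all tbx5a- libraries, and that of replicate 2 was not. The second row listed as NR2F6, NR2F6 ENSDARG00000003165, was at 275 to 420.0 in tbx5a+ and 238 to 461 in tbx5a- libraries (log2 fold change -0.09, SE 0.30). NR2F2 was near the floor, at 0 to 15.7 in tbx5a+ and 0 to 7.73 in tbx5a- libraries. NR2C1 was at 20.5 to 62.5 in tbx5a+ and 14.3 to 81.8 in tbx5a- libraries and NR2C2 at 10.8 to 49.9 in tbx5a+ and 24.9 to 52.1 in tbx5a- libraries, with log2 fold changes of 0.42 (SE 0.83) and -0.65 (SE 0.85). Of the NR2 rows below the filter, NR2E3, nr2f5 and 1 row of NR2F1 were at 0 in every library, NR2E1 reached 10.5 and the other NR2F1 row reached 24.1.

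Among the steroid receptors NR3C1, the glucocorticoid receptor, was at 314, 226, 256 and 339.6 in tbx5a+ and 121, 154, 288 and 201 in tbx5a- libraries. It was higher in tbx5a+ in replicates 2, 8 and 10 and in tbx5a- in replicate 9. The log2 fold change was 0.63 (SE 0.34, adjusted p = 0.723) and moved with single pools, to 0.38 without replicate 2 and 0.89 without replicate 9, with 0.67 when both sparse libraries were left out. NR3C2, the mineralocorticoid receptor, was at 0 to 39.2 in tbx5a+ and 1.02 to 50.7 in tbx5a- libraries. The estrogen receptor gene ESR1 was at 50.3, 9.82, 25.8 and 10.3 in tbx5a+ and 77.9, 28.6, 32.0 and 12.9 in tbx5a- libraries, higher in tbx5a- in each pair, with a log2 fold change of -0.67 (SE 0.95) that did not exceed its spread and was 0.00013 without the sparse libraries. ESR2 ENSDARG00000034181 was at 1.91 to 28.5 in tbx5a+ and 0 to 24.1 in tbx5a- libraries, and a second ESR2 row was at 0 in every library.

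NR5A1 and NR6A1, known from the gonads and from germ cells, were each tested in 1 row. NR5A1 ENSDARG00000103176 was at 41.2 to 177 in tbx5a+ and 42.8 to 101 in tbx5a- libraries (log2 fold change 0.02, SE 0.57), and NR6A1 ENSDARG00000014480 was at 17.4 to 99.7 in tbx5a+ and 4.67 to 77.5 in tbx5a- libraries (log2 fold change 0.80, SE 0.996). A second row of each, with NR5A2 and nr5a5, fell below the filter, all at 0 except that of NR5A1, which reached 24.3.

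The NCOA coactivators dock on receptors that hold their ligand, and NCOA1, NCOA2 and NCOA3 form the p160 family. ncoa2 was at 336, 349, 379 and 394 in tbx5a+ and 219, 347, 173 and 244 in tbx5a- libraries. The tbx5a+ libraries lay within a narrow range, and only the tbx5a- library of replicate 8 reached into it. The means were 364 ± 26.6 in tbx5a+ and 246 ± 73.8 in tbx5a- libraries (SD, n = 4 each). The log2 fold change was 0.61 (SE 0.30, 95% interval -0.01 to 1.23, adjusted p = 0.715). With the pair as a block the 95% interval was 0.03 to 1.19 (adjusted p = 0.518), and without the sparse libraries the log2 fold change was 0.32.

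NCOA3 was at 261, 179.6, 122 and 259 in tbx5a+ and 183, 319, 327 and 199 in tbx5a- libraries (log2 fold change -0.34, SE 0.35), higher in tbx5a+ in replicates 2 and 10 and in tbx5a- in replicates 8 and 9. NCOA1 was at 20.1 to 39.0 in tbx5a+ and 0 to 43.9 in tbx5a- libraries, with 0 in replicate 2 alone. ncoa6, which is not of the p160 family, was at 146, 101, 51.6 and 148 in tbx5a+ and 147, 70.5, 13.0 and 80.7 in tbx5a- libraries (log2 fold change 0.82, SE 0.63, adjusted p = 0.775), and its pair of replicate 9 differed most. Its log2 fold change was 0.13 without the tbx5a- library of replicate 9, 1.26 without that of replicate 2 and 0.44 without both. ncoa4, also known as the receptor that sends ferritin to autophagy, was at 499 to 731 in tbx5a+ and 445 to 786 in tbx5a- libraries and was one of the most tightly bounded members (log2 fold change 0.09, 95% interval -0.43 to 0.61). NCOA5 was at 45.2, 23.6, 36.3 and 62.1 in tbx5a+ and 59.2, 6.13, 71.1 and 9.45 in tbx5a- libraries (log2 fold change 0.76, SE 0.91). Its tbx5a- libraries of replicates 2 and 9 were high and the other 2 low, and without the high ones the log2 fold change was 2.23. ncoa7a was at 91.4 to 107 in tbx5a+ and 41.7 to 221 in tbx5a- libraries and ncoa7b at 0.98 to 10.5 in tbx5a+ and 0 to 16.3 in tbx5a- libraries.

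In 3 cases a row matched the rule by name although its product is no receptor. THRAP3 and thrap3b, known for a part in RNA splicing, had log2 fold changes of -0.19 (SE 0.36) and -0.30 (SE 0.41), and NR2C2AP had 0.04 (SE 1.46).

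**Figure D3:**
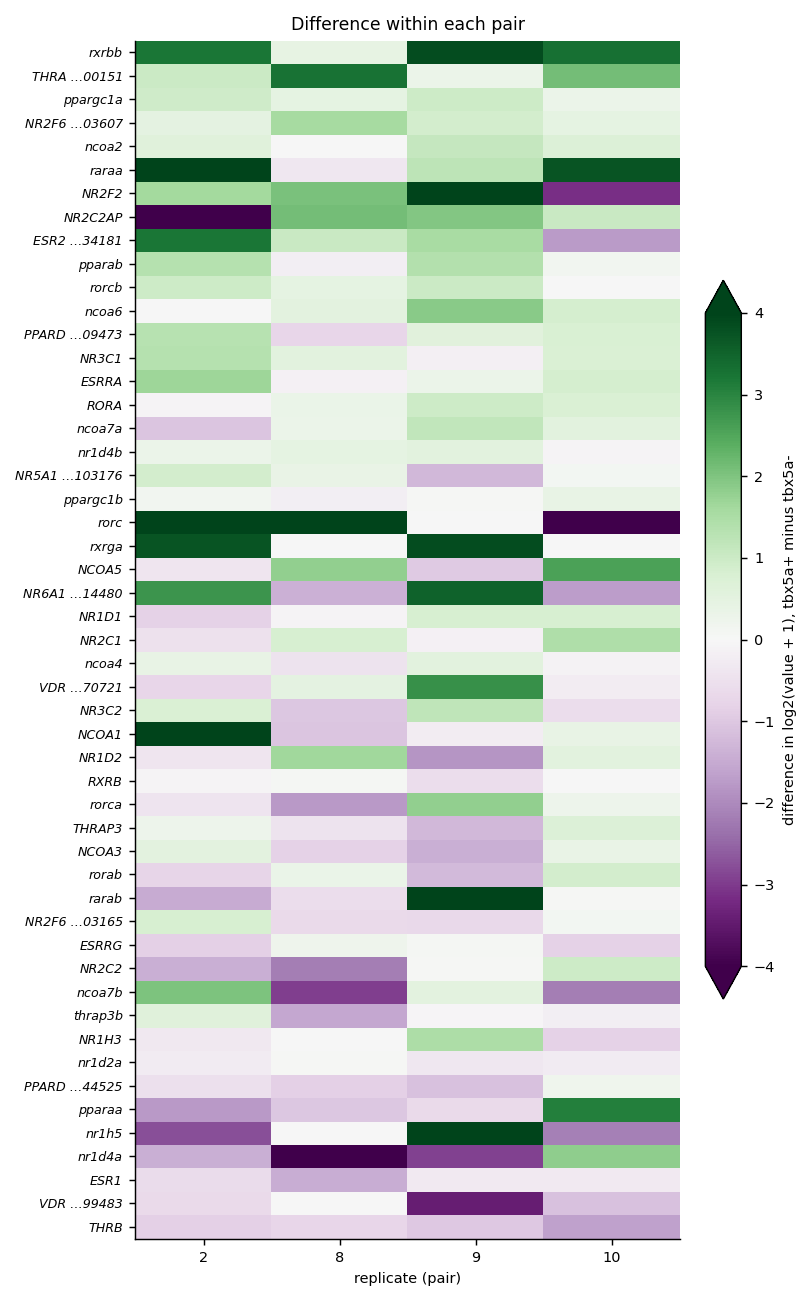
Difference in log2(value + 1) between the tbx5a+ and the tbx5a- library of each replicate (columns) for the 51 genes (rows, ordered by the number of pairs higher in tbx5a+ and then by the median of the pairs), green where tbx5a+ is higher and purple where it is lower, with colours ending at -4 and 4. The 5 top rows are above 0 in all 4 columns, though ncoa2 in replicate 8 is so close to 0 (0.008) that its cell shows almost no colour. Most rows hold both colours.

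The differences within pairs varied between the replicates. Over the 51 members the median difference was 0.26, 0, 0.51 and 0.26 in replicates 2, 8, 9 and 10, and over all genes it was 0.13, 0, 0.20 and 0. For ppargc1a the pairs gave 0.96, 0.45, 0.999 and 0.28, for ncoa2 0.61, 0.01, 1.12 and 0.69 and for pparab 1.37, -0.22, 1.40 and 0.15. In these 3 genes the pairs of replicates 2 and 9, which hold the sparse libraries, showed larger differences than the pair of replicate 8. They also exceeded the pair of replicate 10 for ppargc1a and pparab, but for ncoa2 replicate 10 (0.69) was above replicate 2 (0.61). The part of the sparse libraries was not tested beyond the values without them.

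Many of these genes have a copy or a close relative among the members, and their ratio within a library is free of the library's scaling and of the lengths of the genes when it is compared between libraries. The ratio was formed for 11 such pairs of rows that were above 0 in all 8 libraries, pairs that were drawn up after the values had been seen, so that the ratios are given without a test. How often such ratios separate the populations over all genes was not computed. Of single genes, 2.32% lay wholly higher and 1.65% wholly lower in tbx5a+. In 1 of the 11 the populations did not overlap. That was ncoa2 over NCOA3, at 1.29, 1.95, 3.09 and 1.52 in tbx5a+ and 1.198, 1.09, 0.529 and 1.22 in tbx5a- libraries, with geometric means of 1.85 in tbx5a+ and 0.959 in tbx5a-. The tbx5a+ library had the higher ratio in each pair, with the smallest gap in replicate 2 and the largest in replicate 9.

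The ratio of the 2 PPARD rows, ENSDARG00000009473 over ENSDARG00000044525, was 2.24, 1.35, 1.70 and 3.05 in tbx5a+ and 0.615, 1.25, 0.519 and 2.02 in tbx5a- libraries, also higher in tbx5a+ in each pair but with overlap. For ppargc1a over ppargc1b it was 1.49, 0.769, 0.802 and 2.20 in tbx5a+ and 0.842, 0.489, 0.41 and 2.37 in tbx5a- libraries. This ratio differed more between pools than between populations, and replicate 10 was the highest of both. ESRRA over ESRRG was 1.78, 0.537, 0.667 and 2.30 in tbx5a+ and 0.305, 0.703, 0.573 and 0.706 in tbx5a- libraries, where the tbx5a+ libraries of replicates 2 and 10 lay above all tbx5a- libraries and those of replicates 8 and 9 within their range. The other 7 ratios were higher in tbx5a+ in 1 to 3 of the 4 pairs.

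**Figure D4:**
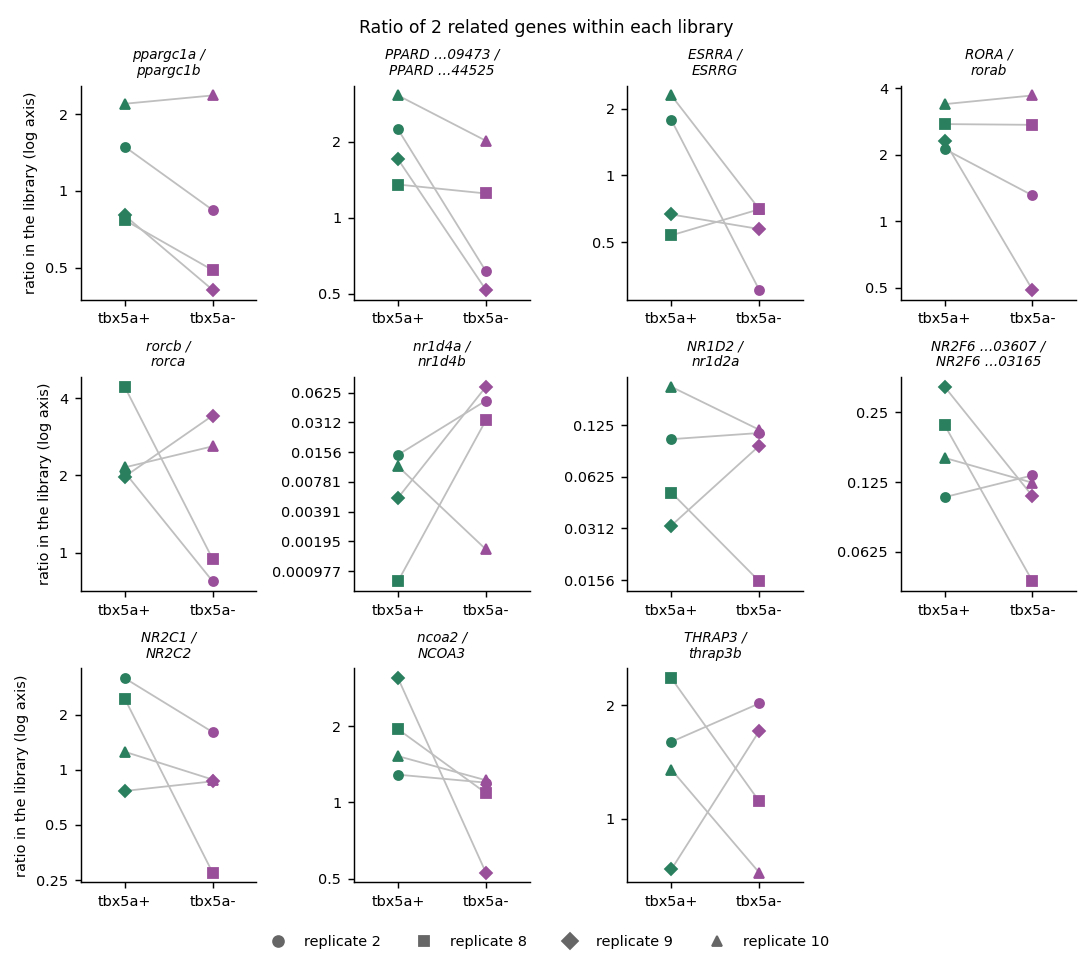
Ratio of the values of 2 related genes within each library (y axis, log scale with base 2) for 11 pairs of genes, with tbx5a+ left of tbx5a- and the libraries of a replicate joined by a line. The pairs of genes were drawn up after the values had been seen. Only for ncoa2 over NCOA3 do the 4 tbx5a+ libraries (1.29 to 3.09) all lie above the 4 tbx5a- libraries (0.529 to 1.22).

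The other genes of the pathways were followed in 8 lists with 188 genes tested in all, which share no gene with the members. None of these genes was called by limma, with or without the pair as a block. Of 38 partners, mediators and corepressors of PGC-1 and the p160 proteins 26 had a log2 fold change above 0, with a median of 0.14, and 3 had an unadjusted p under 0.05 and were higher in tbx5a+ (7.89%, against 4.62% of all genes). PRKAA2, the catalytic subunit alpha-2 of the energy sensor AMPK, was at 173, 64.8, 185 and 151 in tbx5a+ and 30.7, 32.7, 64.0 and 61.8 in tbx5a- libraries (log2 fold change 1.55, SE 0.54, adjusted p = 0.541). The populations did not overlap, though the tbx5a+ library of replicate 8 was only just above the tbx5a- library of replicate 9. The third PGC-1 family gene, pprc1, was at 789.7, 885, 969 and 995 in tbx5a+ and 477, 739.9, 579 and 781 in tbx5a- libraries (log2 fold change 0.52, SE 0.24, adjusted p = 0.700). Its populations did not overlap either, as in 2.32% of all genes. Both genes were named for having the smallest p of the list, and its other genes were not counted for overlap. Without the sparse libraries the log2 fold change was 1.54 for PRKAA2 and 0.25 for pprc1.

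The PPAR target genes, which carry out fatty acid uptake and oxidation, had a median log2 fold change of 0.44, and 29 of the 37 tested were above 0. At an unadjusted p under 0.05, 8 of them (21.6%, against 4.62% of all genes) were higher and 0 lower in tbx5a+. With the pair as a block 9 were higher, where 6.28% of all genes were. The median SE over all genes was 0.94, and the genes of this list named below had 0.22 and 0.20. The share was not set against genes of like level. acsl1b, which activates long-chain fatty acids to acyl-CoA, was at 8176, 8214, 6513 and 8386 in tbx5a+ and 4089, 7019, 3387 and 6278 in tbx5a- libraries (log2 fold change 0.65, SE 0.22, adjusted p = 0.506). ACADVL, the dehydrogenase of very long-chain acyl-CoA, was at 16025, 13514, 11849 and 13624 in tbx5a+ and 8569.5, 12605, 7579 and 10714 in tbx5a- libraries (log2 fold change 0.50, SE 0.20, adjusted p = 0.624). Both were lowest in the sparse libraries. Without those libraries the median of the list was 0.20, beside 0.04 over all genes. At an unadjusted p under 0.05, 1 gene in place of 8 was then higher in tbx5a+. In that fit 5.68% of all genes had such a p in either direction, against 7.06% with all libraries. With fewer libraries the number of all genes called also fell, from 27 to 6.

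Of 41 target genes of ERR and PGC-1, enzymes of the citric acid cycle and subunits of the respiratory chain among them, 34 had a log2 fold change above 0, with a median of 0.30. At an unadjusted p under 0.05, 8 (19.5%, against 4.62% of all genes) were higher and 0 lower in tbx5a+, and with the pair as a block 16 were higher, where 6.28% of all genes were. All genes had a median SE of 0.94, and the genes of this list named below had 0.20 and 0.21. The shares were not set against genes of like level. ATP5F1B, the beta subunit of ATP synthase, was at 18512, 13655, 16076 and 21007 in tbx5a+ and 8677, 11537, 10093 and 14156 in tbx5a- libraries (log2 fold change 0.64, SE 0.20, adjusted p = 0.443). With the pair as a block its adjusted p was 0.0444, but its log2 fold change was under 1 in size. Citrate synthase, CS, was at 4049, 3165, 3893 and 5908 in tbx5a+ and 2221, 2416, 2536 and 3647 in tbx5a- libraries (log2 fold change 0.64, SE 0.21, adjusted p = 0.506). Without the sparse libraries the median of this list was 0.20 and 2 genes were higher in tbx5a+ at an unadjusted p under 0.05. In that fit, which holds fewer libraries, 5.68% of all genes had such a p in either direction, against 7.06% with all libraries. In each of the 4 pairs the median difference of the list was above 0, from 0.19 in replicate 8 to 0.39 in replicate 9. Over the 8105 genes above 0 in all 8 libraries it was also above 0 in each pair, from 0.03 to 0.07. The 9 cardiomyocyte markers tested also had a median difference above 0 in each pair, from 0.13 to 0.21, and 1 of them was higher in tbx5a+ at an unadjusted p under 0.05, or 3 with the pair as a block. Of these 9 markers, 6 had a log2 fold change above 0. Among them is nppa, which the authors name as a trabecular marker, with 0.41 and tbx5a+ higher in each pair. MYL7 had -0.03. The part of the shift of the cardiomyocyte markers in the values of the target genes was not tested.

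The remaining lists were smaller in size or nearer to the whole table. Without the sparse libraries the medians of the partner, glucocorticoid and LXR lists were -0.0014, -0.013 and 0.34, beside 0.04 over all genes. Those of the clock, thyroid hormone and retinoid lists were then 0.14, 0.74 and 0.32. Of 29 clock genes and REV-ERB or ROR targets the median was 0.14. With the pair as a block 2 were higher in tbx5a+ at an unadjusted p under 0.05, where 6.28% of all genes were, and 1 was lower. Without the block 1 was higher (3.45%, against 4.62% of all genes) and 1 lower. Without the block these were CLOCK, of the positive arm of the clock, at 55.5, 56.0, 44.0 and 105 in tbx5a+ and 0, 0, 88.9 and 58.4 in tbx5a- libraries, and PER1, of its negative arm. PER1 was at 0 in all 4 tbx5a+ libraries and at 43.9, 17.4, 2.37 and 0 in tbx5a- libraries. It passed the filter through tbx5a- libraries alone, so the direction of its difference was set by the filter. Neither was called (adjusted p = 0.691 for CLOCK and 0.700 for PER1), and no clock time is given in the labels for the collection of the hearts.

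Of 19 glucocorticoid response genes the median was 0.19. At an unadjusted p under 0.05, 3 (15.8%, against 4.62% of all genes) were higher and 2 lower in tbx5a+. Over all genes 7.06% had such a p in either direction. nfkbiaa, an inhibitor of NF-kappaB, was at 311, 388, 270.3 and 474 in tbx5a+ and 1067, 409.8, 1088 and 655 in tbx5a- libraries (log2 fold change -1.08, SE 0.30, adjusted p = 0.294). HSD11B2, the enzyme that inactivates cortisol, was at 267, 141, 349.9 and 509.9 in tbx5a+ and 117, 112, 117 and 222 in tbx5a- libraries (log2 fold change 1.07, SE 0.40, adjusted p = 0.572). nfkbiaa was highest in the sparse libraries, and its log2 fold change without them was -0.55.

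Of 10 genes of retinoid supply and response the median was 0.45. An unadjusted p under 0.05, which 7.06% of all genes had, was found for 1, CRABP2, a carrier of retinoic acid. CRABP2 was at 0, 0, 0 and 25.4 in tbx5a+ and 69.1, 2.04, 139 and 54.1 in tbx5a- libraries (log2 fold change -3.98, SE 1.49, adjusted p = 0.579). It would not have passed the filter on its tbx5a+ libraries alone. DHRS3, which reduces retinal, was at 76.0, 17.7, 39.2 and 43.3 in tbx5a+ and 8.77, 8.18, 10.7 and 31.8 in tbx5a- libraries, higher in tbx5a+ in each pair, with an adjusted p of 0.749. Only 2 genes of thyroid hormone supply and response were tested, DIO1 and KLF9, and their log2 fold changes were 0.57 (SE 0.82) and 0.32 (SE 0.56). Of 16 LXR and sterol targets the median was 0.64. With the pair as a block 4 were higher in tbx5a+ at an unadjusted p under 0.05, where 6.28% of all genes were. Without the block 1 gene was higher (6.25%, against 4.62% of all genes). Without the block that was ACACB, which makes malonyl-CoA, at 1997, 1146, 1337 and 2121 in tbx5a+ and 766, 1369, 752 and 1171 in tbx5a- libraries (log2 fold change 0.70, SE 0.25, adjusted p = 0.566). srebf2, a regulator of sterol synthesis, had a log2 fold change of 1.60 (SE 0.80) that was -0.22 without the sparse libraries.

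**Figure D5:**
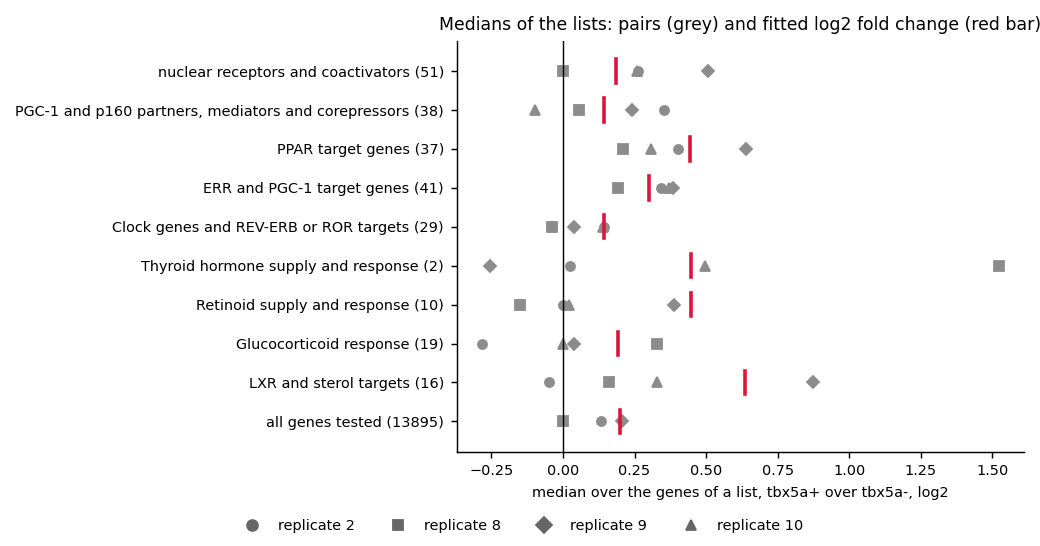
Median over the genes of each list (number tested in brackets) of the difference between tbx5a+ and tbx5a- on the log2 scale, for each replicate (grey symbols) and in the limma fit (red bar). The medians of the PPAR and the ERR and PGC-1 target genes are above 0 in all 4 replicates. So are those of the 8105 genes above 0 in all 8 libraries, which are smaller (0.03 to 0.07, not drawn). The median of the 51 nuclear receptors and coactivators in the fit (0.19) lies beside that of all genes tested (0.20).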

How the data were processed

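The 8 RNA-Seq libraries, 4 of tbx5a+ and 4 of tbx5a- ventricular cardiomyocytes, were grouped by the cell type and pair given in the labels. The authors amplified 0.6 ng of total RNA per library in 2 rounds, from pools of 5 hearts, sequenced 60-base single reads, removed adaptors with cutadapt, estimated counts per gene with RSEM and normalized them for a test with EdgeR. The methods name cutadapt 1.9.1, RSEM 1.2.25 and Ensembl release 82, and the submitters' processing notes name CASAVA 1.8.2, RSEM 1.2.3 and the build Zv9. The sources used here do not settle which versions made the table, so no coordinates or sequences are printed.

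In the deposited table the authors give 1 normalized signal value for each gene in each library, not counts. In each library most values below 60 (62.7% to 77.6%) lay within 0.0051 of a whole multiple of 1 spacing, the value of 1 read, and a total divided by it gave the estimated reads. Amplified reads are no independent molecules, so the floor of 3 reads covers counting error only.

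Genes with 1 CPM in at least 2 libraries were tested, which is the filter of the methods. log2(value + 1) was fitted over all of them by limma 3.58.1 (R 4.3.3) with a mean-variance trend and Benjamini-Hochberg adjustment. The call rule, adjusted p at most 0.05 and log2 fold change 1 or more in either direction, follows the methods. The fit was tested on simulated data. Other steps used Python 3.11.15, numpy 2.4.6 and pandas 2.3.3. The series is described as paired and both populations of a number came from the same pool of hearts. Across genes, deviations from the group mean correlated within a number at 0.089 (2), 0.0584 (8), 0.0428 (9) and 0.0763 (10), always higher than with another number. Counts of calls and of genes with an unadjusted p under 0.05 with the block are therefore given beside those without it where they differ.

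Gene symbols came from a table of Ensembl symbols, where capitals are names of the human match, and 13000 of the 13895 tested genes had one. ppargc1a, pparab and ncoa2 are listed there as PPARGC1A, PPARA and NCOA2. The members and the 8 pathway and 6 marker lists were chosen with earlier results of these data known. Values in each library are given for the members called with or without the block (there were none), the 15 with the smallest p, those whose populations did not overlap (none), and all PGC-1, PPAR and ERR genes. Other members are shown by their range or their fold change, and for ESR1, NCOA3 and NCOA5 the values were added after they had been seen. From each pathway list the called genes and the 2 with the smallest p are named. The 23 alternatives comprised the block, other pseudocounts, filters, scalings and fits, and leaving out libraries.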

Additional observations from a re-analysis of the deposited data

Results flagged for a closer look

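In 10 of the 102 groups of 4 libraries (51 genes in 2 populations) the highest or lowest library stood apart from the other 3 by Dixon's criterion at 95%. The criterion was applied to log2(value + 1), where low values lie further apart than in the normalized units printed below. Chance flags about 1 group in 20. Of the 10, 2 were in tbx5a+ and 8 in tbx5a- libraries.

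In the tbx5a+ library of replicate 8, thrap3b was at 64.8 with the others at 195.7 to 211, and NR3C2 was at 0 with the others at 33.9 to 39.2. Among the tbx5a- libraries, replicate 9 stood apart for nr1d2a (525, others 465 to 474), RXRB (167, others 63.6 to 74.7) and rarab (0, others 47.0 to 73.5). Replicate 8 stood apart for nr1d4b (932, others 507 to 545) and NR1D2 (7.15, others 49.8 to 55.8), replicate 10 for nr1d4a (0.86, others 26.3 to 39.1) and rorc (16.2, others at 0), and replicate 2 for NCOA1 (0, others 23.2 to 43.9). For rorc, whose other tbx5a- libraries were tied at 0, any value above 0 gives a Dixon ratio of 1 and a flag. A value of 0 allows up to 3 reads.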

How the results depend on the processing

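Over 23 alternatives no member and no gene of the pathway lists was called. Of the 23 members named with their values in each library, 18 had no change of sign. That count is a description, since the alternatives reuse the same libraries and most of these members were named for a small p. rxrga, at 0 in every tbx5a- library, could not change sign. rxrbb, raraa, THRA ENSDARG00000000151 and nr1d4a passed the filter only with the population where they were higher. Not every member was tested in all alternatives, and rxrga and pparaa were tested in 18. The number of members with an unadjusted p under 0.05, 0 in the fit reported, was 3 with the replicate block, 2 with upper quartile scaling and 1 each with 5 CPM in 4 libraries, with limma-voom, with no filter, with a pseudocount of 5, with robust empirical Bayes and with both sparse libraries (tbx5a- of replicates 2 and 9) left out. It ranged over 0 to 3 when a library or a pair was left out. The count of all genes called, 27, was 58 with the replicate block (19 of them higher in tbx5a+, against 1 of the 27) and 6 without the sparse libraries, and 11 to 31 when a library or a pair was left out, with 11 without replicate 2. The sign turned for pparaa (0.0213 with limma-voom, -1.14 to 0.62 when a library or a pair was left out), for ppargc1b (-0.0278 with equal totals, -0.085 to 0.22 when a library or a pair was left out), for NCOA3 (-0.62 to 0.0195 when a library or a pair was left out), for ESR1 (0.000125 without the sparse libraries) and for PPARD ENSDARG00000009473 (-0.0916 without the sparse libraries), and the cause was not tested. The block changed no call of a member. With 4 libraries in each population and the wide spread of genes with few reads, most members are bounded loosely.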
